A study of Mus musculus with 12 samples.

Results

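The genes described here are 42 genes of DNA replication and of the entry from G1 into S phase, taken from a table of 24421 genes that compares splenic CD8 T cells of wild-type mice and of mice with a knockout of linker histone H1 genes. They were chosen by gene symbol from a list that covers origin licensing, helicase firing, polymerases and their clamp, strand maturation, nucleotide supply, histone supply to new DNA, and the cyclin E and E2F regulators. All 42 symbols were found, and all 42 were among the 12972 genes to which the authors' deposited table gives an adjusted p-value. No member was removed by a filter on low values.

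CD8 T cells were sorted by flow cytometry from the spleens of C57BL/6 mice, and polyadenylated RNA of 500000 cells per sample was sequenced with paired ends. The 2 groups were wild-type animals (WT) and animals labelled cTKO, with 1 female and 1 male in each. The labels name the strain, genotype and sex, and the series title names H1 linker histones. They give neither the alleles deleted in cTKO, nor the age of the animals, nor what drives the deletion. The comparison asks how RNA levels in CD8 T cells differ between these genotypes. B cells and CD4 T cells of the same series were not analysed here.

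DNA replication is prepared in G1, when ORC, CDC6 and CDT1 load the MCM2-7 helicase onto origins, a step called licensing. At the start of S phase the DBF4-dependent kinase CDC7, cyclin E with its kinase, CDC45 and the GINS complex turn the loaded helicase on, and polymerases alpha, delta and epsilon copy the strands. Many of the genes involved are transcribed at the G1/S boundary by E2F factors, are low in resting naive T cells, and are induced when a T cell enters the cycle.

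E2F factors bind a short GC-rich site after a run of T, so the promoters of the members were searched for the letters TTTCCCGC, TTTGGCGC, TTTGCCGC and TTTCGCGC on both strands. Of the 42 members, 34 had a RefSeq promoter window on GRCm38.p6 (250 bases before to 50 after the annotated start), and the others were Rfc2, Gins1, Gins2, Pole, Ccne2, Gmnn, Mcm4 and Exo1. The windows below show the bases outside the annotated gene for Mcm5 and Mcm6, helicase subunits with more than 1 match whose RNA did not pass the test, and for E2f2, Clspn and Tk1, whose RNA was higher in cTKO. Capitals mark the matches. In order, the windows lie on build GRCm38.p6 at chr8:75109259-75109467 (plus strand), chr1:128359706-128359955 (minus strand), chr4:136172024-136172273 (plus), chr4:126556730-126556956 (plus) and chr11:117826088-117826264 (minus).
Mcm5: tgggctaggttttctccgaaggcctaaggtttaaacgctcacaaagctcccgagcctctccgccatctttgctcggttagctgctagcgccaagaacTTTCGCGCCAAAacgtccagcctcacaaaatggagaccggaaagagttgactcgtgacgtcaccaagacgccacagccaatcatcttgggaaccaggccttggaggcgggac
Mcm6: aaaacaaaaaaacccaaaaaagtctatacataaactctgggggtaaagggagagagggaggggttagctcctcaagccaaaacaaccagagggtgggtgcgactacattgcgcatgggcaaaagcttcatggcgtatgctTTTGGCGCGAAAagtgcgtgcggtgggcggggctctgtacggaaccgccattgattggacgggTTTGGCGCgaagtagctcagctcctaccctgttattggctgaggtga
E2f2: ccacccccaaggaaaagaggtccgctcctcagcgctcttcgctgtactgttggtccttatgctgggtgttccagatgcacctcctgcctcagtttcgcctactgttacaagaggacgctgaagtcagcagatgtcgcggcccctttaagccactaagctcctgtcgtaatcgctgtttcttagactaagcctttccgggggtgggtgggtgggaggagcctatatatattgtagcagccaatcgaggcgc
Clspn: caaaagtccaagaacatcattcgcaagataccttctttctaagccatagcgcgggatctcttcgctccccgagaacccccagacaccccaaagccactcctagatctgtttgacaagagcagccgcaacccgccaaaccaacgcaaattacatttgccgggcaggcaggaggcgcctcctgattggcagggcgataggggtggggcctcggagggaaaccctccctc
Tk1: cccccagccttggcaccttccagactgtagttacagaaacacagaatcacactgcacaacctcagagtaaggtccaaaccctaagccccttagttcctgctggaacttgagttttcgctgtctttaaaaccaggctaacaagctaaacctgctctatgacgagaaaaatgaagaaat

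The windows of Mcm6 held 3 matches, which began 110, 106 and 47 bases before the start, and the first 2 of these overlap. In Mcm5 there were 2 overlapping matches, at 153 and 149 bases. E2f2 and Clspn each had 1 match, which reached past the annotated start and is not printed, and Tk1 had none. Matches were found in 13 of the 34 member genes (38.2%), against 4.81% of the tested genes and 2.6% of all genes with a window. Of the member genes with a match 2 of 13 were higher, at a median log2 fold change of 0.07, and of those without 1 of 21, at -0.04. For Cdc6, Orc1, E2f1 and Dut the only window lay inside the annotated gene, so the sequence before the gene was not searched. Cdc6 and Orc1 are counted with a match, and E2f1 and Dut without. The letters CCAAT, on either strand, were found in 55.9% of the member genes, 43.2% of the tested genes and 41.1% of all genes. A match is a description of the letters in the window and not a binding site.

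By the test of the authors' deposited table, 4 of the 42 members were higher in cTKO at an adjusted p under 0.05 (9.52%), and over all genes tested the share called higher was 9.77%. They were E2f2, Pole, Clspn and Tk1. No member was lower (0 of 42), where 3.61% of all genes tested were called lower. At an unadjusted p under 0.05 the deposited DESeq2 test gave 6 higher and 0 lower members, beside 16.6% and 9.69% of all genes tested at that threshold. limma on reads per library gave 2 higher and 0 lower members at its adjusted p, and 4 and 0 with a term that separates larger from smaller libraries. The share of members called higher is thus close to the share in the whole table. Their median log2 fold change was 0.14, beside 0.04 for all genes tested, and the extremes were -0.58 and 1.91.

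**Figure D1:**
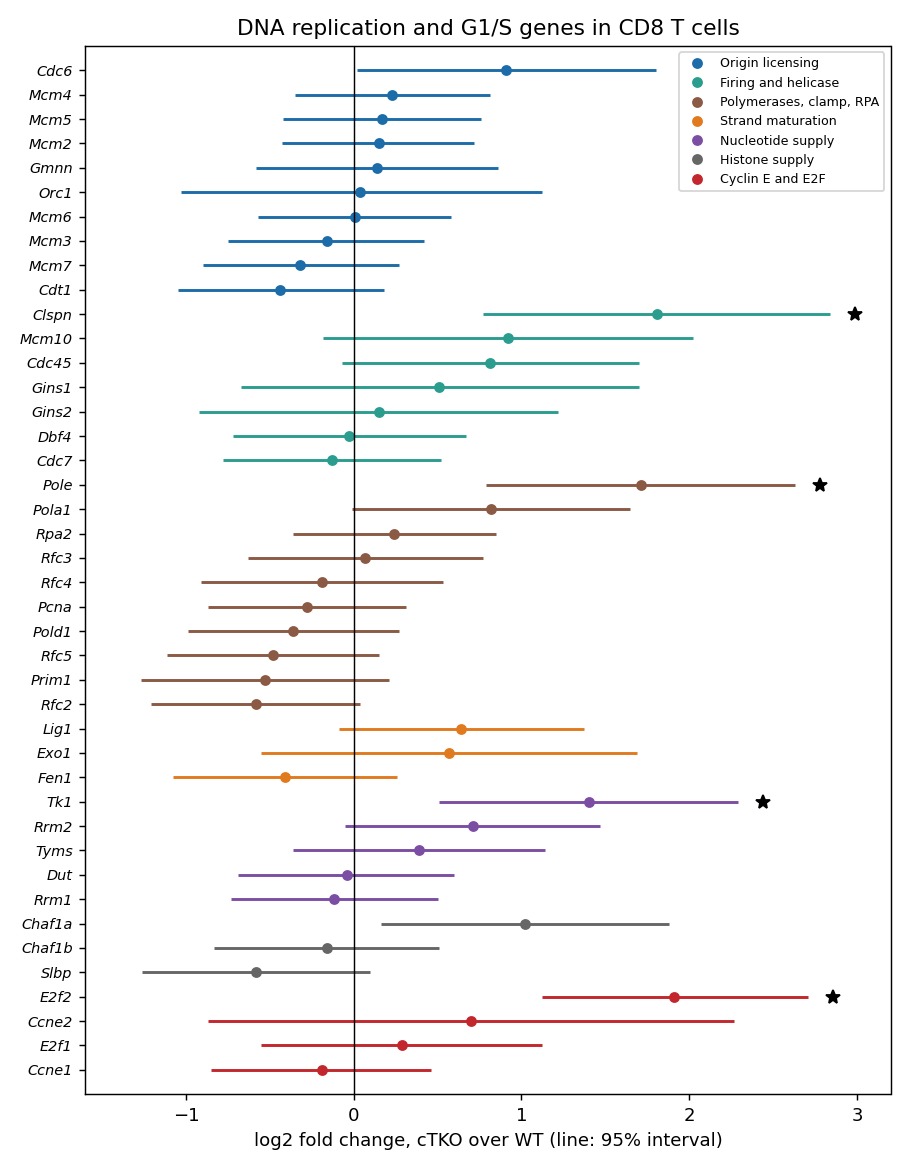
Log2 fold change of cTKO over WT for the 42 members, with the 95% interval from the deposited standard error as a line and colour by role. Stars mark E2f2, Pole, Clspn and Tk1, the 4 members past an adjusted p of 0.05, and the MCM2-7 genes sit near 0.

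Reads per library were recovered from the deposited means for all 42 members, as described in the processing. The 2 libraries of each genotype are called the larger and the smaller by their size factors, 1.21 and 0.866 in WT and 1.21 and 0.805 in cTKO, with 14717288, 9930133, 13216730 and 9051689 recovered reads. Most values below are normalized reads (reads divided by the size factor). Reads and normalized reads are given in the order larger WT, smaller WT, larger cTKO, smaller cTKO. Xist, the RNA that coats the inactive X, had 479, 2, 4871 and 28 reads. The larger libraries are therefore those of the animals labelled female, and library size and sex cannot be told apart. In RNA from a bulk sort, a difference in the number of cells that express a gene and a difference in RNA per cell cannot be told apart either.

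Hist1h1c, Hist1h1d and Hist1h1e, which code for linker histones, had 0 reads in both cTKO libraries. Their WT reads were 41 and 56 for Hist1h1c, 5 and 11 for Hist1h1d, and 64 and 112 for Hist1h1e. The direction of the fold change was read from these genes, because the deposited table does not state it. An inverted reading would turn every direction given here. Cd8a and Cd8b1, the CD8 co-receptor genes, had mean normalized counts of 20303 and 31813, and Cd4 had 1, 4, 1 and 0 reads, so the labelled cell type matched its defining markers.

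Among the regulators of G1/S entry E2f2 was the member with the largest difference. E2f2 (chromosome 4, 136172274 to 136196057) codes for an E2F factor that activates G1/S genes and also restrains T cell proliferation. Its normalized reads were 123, 101, 506 and 335. Both cTKO libraries lay far above both WT libraries, and the larger cTKO library was highest. In the authors' deposited table the log2 fold change was 1.91 (SE 0.40), or 3.77-fold (95% interval 2.18 to 6.52), with an adjusted p of 6.28e-05 by DESeq2. In refits that kept the dispersion behind each deposited standard error (the deposited dispersions), E2f2 was called without any 1 of the 4 libraries. By limma it was called with all 4 libraries (adjusted p 0.0112) but without any 1 of them the call was lost. In those limma fits its log2 fold change was 2.03 and 1.74 without the larger and the smaller WT library. It was 1.59 and 2.18 without the larger and the smaller cTKO library. Over the whole table limma also called fewer genes in each of these fits than with all 4 libraries. At the deposited dispersions its fold was 3-fold without the larger cTKO library (adjusted p 0.0294) and 4.53-fold without the smaller.

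E2f1, the founding member of the E2F family, had 180.3, 141, 225 and 167 normalized reads. The groups overlapped, and the log2 fold change was 0.29 (SE 0.43, adjusted p 0.715) by the authors' deposited table. The ratio of E2f2 to E2f1 reads, on the log2 scale, was -0.56 and -0.49 in WT and 1.17 and 1.01 in cTKO, so E2f2 had fewer reads than E2f1 in WT and more in cTKO. Per kilobase of exon, the normalized reads of E2f2 were 25.1, 20.6, 103.7 and 68.7, and those of E2f1 57.2, 44.7, 71.4 and 52.8.

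Ccne1 and Ccne2 code for cyclins E1 and E2, which activate CDK2 at the end of G1. Ccne1 had 725, 568, 531 and 600.0 normalized reads, overlapping between the genotypes (log2 fold change -0.19, SE 0.33, from the authors' deposited table). Ccne2 was the member with the fewest reads, 28.8, 16.2, 42.2 and 31.1 after normalization. Both cTKO libraries were above both WT libraries, but by little, and the authors' deposited table gives a log2 fold change of 0.70 that had an SE of 0.80 (adjusted p 0.623). Among these 4 regulators 1 passed and 3 did not.

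None of the 10 licensing genes passed the test in the authors' deposited table, and their median log2 fold change was 0.09. The 6 subunits of the MCM2-7 ring, the replicative helicase, gave fold changes, as log2, of 0.15 (Mcm2), -0.16 (Mcm3), 0.23 (Mcm4), 0.17 (Mcm5), 0.01 (Mcm6) and -0.32 (Mcm7) in the authors' deposited table. Their standard errors were 0.29 or 0.30. The 95% intervals together ran from 0.536-fold (the lower bound of Mcm7) to 1.75-fold (the upper bound of Mcm4), so differences inside that range were not resolved by these 4 libraries. The adjusted p of the 6 genes was between 0.538 and 0.991.

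The helicase genes were also among the members with the most reads. Mcm6 (chromosome 1, 128331575 to 128359705) had 5403, 4531, 4733 and 5256 normalized reads, with both cTKO values between the WT values. Mcm4 had 3251, 2677, 3579 and 3359, and here both cTKO libraries were above both WT libraries. Mcm7 had 1989, 2338, 1774 and 1703, and both cTKO libraries were below both WT libraries. Mcm2, Mcm3 and Mcm5 overlapped between the genotypes, with 2353 to 2888, 2225 to 2778 and 1614 to 2084 normalized reads over the 4 libraries.

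The loaders of the helicase went in different directions without passing the test. Cdc6, the loading ATPase, had 207, 113, 376 and 226 normalized reads, which gave the largest log2 fold change of the licensing group, 0.91 (SE 0.45, adjusted p 0.176, from the authors' deposited table). Cdt1, its partner in loading, had 1261, 1096, 803 and 938, with both cTKO libraries below both WT libraries (-0.44, SE 0.31, adjusted p 0.384, from the authors' deposited table). Gmnn, which codes for the CDT1 inhibitor geminin, had 277, 252, 288 and 293. The log2 ratio of Cdt1 to Gmnn reads was 2.19 and 2.12 in WT and 1.48 and 1.68 in cTKO. Orc1, the regulated subunit of the origin recognition complex, had 88.1, 58.9, 73.7 and 78.3 (log2 fold change 0.04, SE 0.55, from the authors' deposited table).

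Of the 7 genes of origin firing and the active helicase 1 passed, and the group median was 0.51. Clspn (chromosome 4, 126556957 to 126594533) codes for claspin, an adaptor at the replication fork that is needed for activation of the checkpoint kinase CHK1. Its normalized reads were 31.3, 53.1, 157 and 135, from 38, 46, 190 and 109 reads. The cTKO libraries lay close together and above both WT libraries, which differed from each other more than the cTKO libraries did. The log2 fold change was 1.81 (SE 0.53, 3.50-fold, adjusted p 0.00807) by the authors' deposited table. The call of Clspn was lost at the deposited dispersions without the larger WT library (log2 fold change 1.46, adjusted p 0.211) and without the larger cTKO library (1.69, adjusted p 0.125).

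Mcm10 and Cdc45, which act when the helicase is switched on, had their high value in a single library. Mcm10 had 74.1, 56.6, 171 and 75.8 normalized reads (log2 fold change 0.92, SE 0.56, adjusted p 0.289, from the authors' deposited table). Cdc45, a core part of the active helicase, had 143, 109, 279.9 and 163 (0.81, SE 0.45, adjusted p 0.238, from the authors' deposited table). In both genes the larger cTKO library stood above the other 3, and the smaller cTKO library was little above WT. Without the larger cTKO library the log2 fold changes at the deposited dispersions were 0.21 for Mcm10 and 0.37 for Cdc45.

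The remaining firing genes differed little. Gins1 and Gins2 code for subunits of the GINS complex and had 50.2, 40.4, 61.3 and 68.3, and 84.8, 58.9, 72.9 and 87.0 normalized reads. Cdc7, the kinase that triggers firing, had 816, 622, 695 and 619.9, and its activator Dbf4 had 484, 367, 447 and 389. In the authors' deposited table they had log2 fold changes of 0.51, 0.15, -0.13 and -0.03, with standard errors of 0.60, 0.55, 0.33 and 0.35. In these 4 genes the difference between genotypes was smaller than its standard error.

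The 10 genes of polymerases, clamp, clamp loader and single-strand binding held a single call, and their median log2 fold change was -0.23. Pole (chromosome 5, 110286319 to 110337468) codes for the catalytic subunit of polymerase epsilon, which copies the leading strand. Its normalized reads were 128, 117, 573 and 225. Both cTKO libraries were above both WT libraries, but the larger held 2.55 times the normalized reads of the smaller. The log2 fold change was 1.71 (SE 0.47, 3.27-fold, 95% interval 1.72 to 6.21) in the authors' deposited table, where its adjusted p was 0.00423. The call of Pole was lost at the deposited dispersions without the larger cTKO library, where the log2 fold change was 0.88 (1.84-fold, adjusted p 0.676), and without the smaller WT library (1.65, adjusted p 0.0511).

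Pola1, on the X chromosome, codes for the catalytic subunit of polymerase alpha, which starts each new strand. It had 285, 258, 658 and 299 normalized reads, so that a single library, the larger cTKO, stood apart. Its log2 fold change was 0.82 (SE 0.42, adjusted p 0.197) by the authors' deposited table and 0.14 at the deposited dispersions without that library. Prim1, the primase that works in the same complex, had 562, 360.3, 355 and 285. The log2 ratio of Pola1 to Prim1 reads was -0.98 and -0.48 in WT and 0.89 and 0.07 in cTKO.

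Pold1 codes for the catalytic subunit of polymerase delta, the lagging-strand enzyme, and had 1924, 1602, 1584 and 1158 normalized reads. Both cTKO libraries were below both WT libraries, although the larger only just, and the log2 fold change was -0.36 (SE 0.32, adjusted p 0.501) by the authors' deposited table. Pcna, the sliding clamp, had 2832, 2290, 2047 and 2180 (log2 fold change -0.28, SE 0.30, adjusted p 0.600, from the authors' deposited table). The clamp loader subunits Rfc2 and Rfc5 were also below WT in both cTKO libraries, with 1778, 1632, 949 and 1326 for Rfc2 and 1324, 1080.0, 774 and 954 for Rfc5. In the authors' deposited table they had log2 fold changes of -0.58 (SE 0.32, adjusted p 0.229) and -0.48 (SE 0.32, adjusted p 0.349), neither past the test.

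The other clamp loader subunits overlapped between the genotypes. Rfc3 had 343, 309.5, 326 and 359 normalized reads, the smallest difference in this group (log2 fold change 0.07, SE 0.36, from the authors' deposited table), and Rfc4 had 406, 353, 281 and 385. Rpa2, a subunit of the protein that coats single-stranded DNA, had 1606, 1633, 1662 and 2170.0, with both cTKO libraries above WT and most of the difference in the smaller one (0.24, SE 0.31, from the authors' deposited table).

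In 15 of 42 members both cTKO values exceeded both WT values, and in 7 of 42 both fell short of them. Over the tested genes with recovered reads the shares were 31.6% and 28.0%. Of the 7 below, 5 belonged to the polymerase and clamp group (Rfc2, Rfc5, Prim1, Pold1 and Pcna) and the others were Cdt1 and Mcm7. None of the 7 passed the test.

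**Figure D2:**
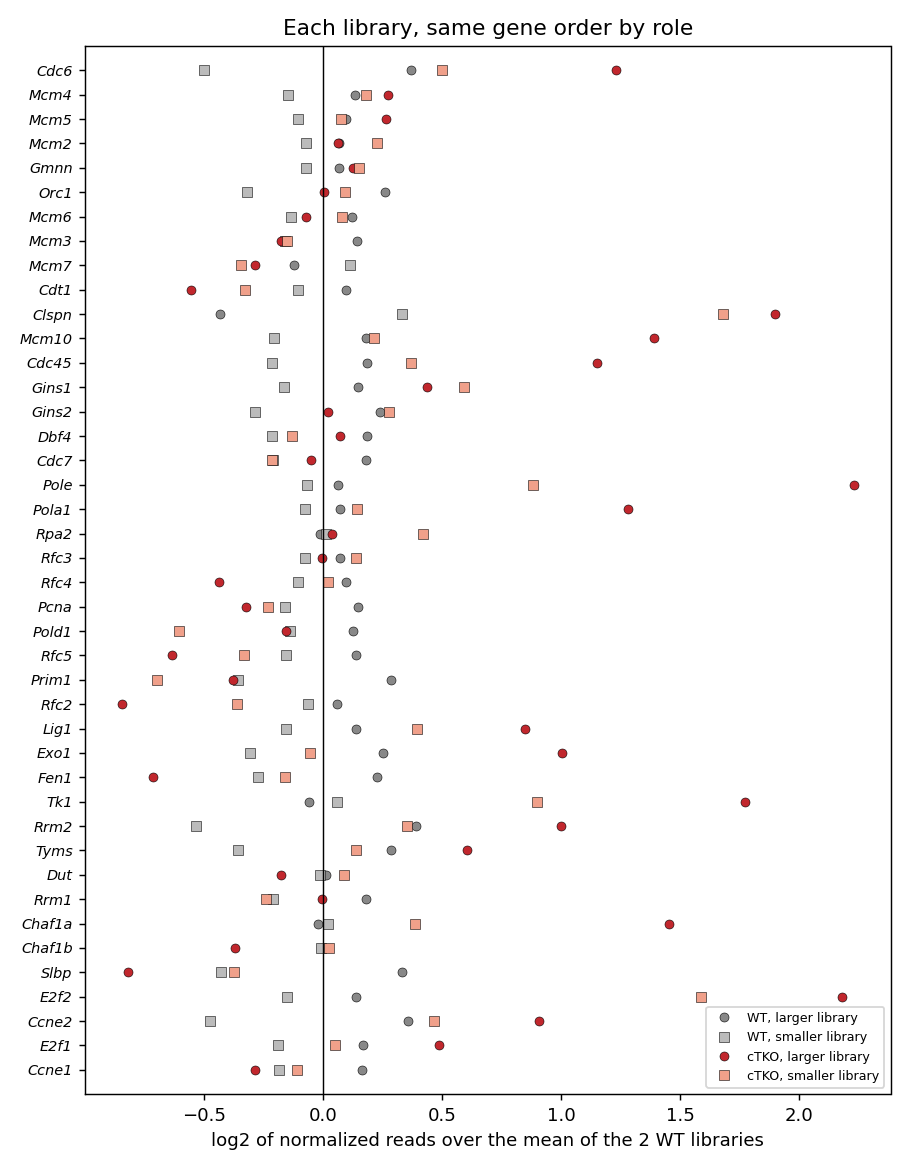
Normalized reads of each member in each of the 4 libraries, as log2 of the ratio to the mean of the WT libraries, in the same order as the plot of fold changes. For Pole, Pola1, Mcm10 and Chaf1a the larger cTKO library (dark red circle) lies well to the right of the smaller one (light red square), and for E2f2 and Clspn both lie to the right of WT.

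None of the 3 genes of strand maturation passed. Lig1, the ligase that joins Okazaki fragments, had 306, 249, 500.2 and 365 normalized reads, with both cTKO libraries above WT (log2 fold change 0.64, SE 0.37, adjusted p 0.263, from the authors' deposited table). Fen1, the nuclease that trims their flaps, had 2155, 1524, 1120.0 and 1646 (-0.41, SE 0.34, from the authors' deposited table). Exo1, an exonuclease of mismatch repair, had 81.5, 55.4, 138 and 65.8, high in the larger cTKO library alone (0.57, SE 0.57, from the authors' deposited table).

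Of the 5 genes of nucleotide supply Tk1 passed and 4 did not, and the median was 0.39. Tk1 (chromosome 11, 117815519 to 117826087) codes for cytosolic thymidine kinase, the salvage enzyme of dividing cells. Its normalized reads were 94.7, 103, 337 and 184. Both cTKO libraries were above both WT libraries, which lay close together, and the larger cTKO library had 1.83 times the normalized reads of the smaller. The log2 fold change was 1.40 (SE 0.45, 2.65-fold, 95% interval 1.43 to 4.90) in the authors' deposited table, where its adjusted p was 0.0202. The call of Tk1, at the same dispersions as above, was kept only without the smaller cTKO library (adjusted p 0.0155). Without the larger WT, the smaller WT or the larger cTKO library its log2 fold change was 1.35, 1.46 and 0.90 (adjusted p 0.169, 0.0808 and 0.621).

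Rrm2 and Rrm1 code for the small and large subunits of ribonucleotide reductase, which makes deoxynucleotides. Rrm2, the subunit made in S phase, had 1191, 628, 1821 and 1162 normalized reads, and its groups overlapped because the WT libraries differed 1.90-fold. Its log2 fold change was 0.71 (SE 0.39, adjusted p 0.225) by the authors' deposited table. Rrm1 had 2082, 1589, 1830.0 and 1555 (-0.12, SE 0.31, from the authors' deposited table), and the log2 ratio of Rrm2 to Rrm1 reads was -0.81 and -1.34 in WT and -0.01 and -0.42 in cTKO. Tyms, thymidylate synthase, had 452, 289.8, 564 and 409, and Dut, which removes dUTP, had 595, 584, 522 and 626, the smallest difference of the group (-0.04, SE 0.33, from the authors' deposited table).

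None of the 3 genes of histone supply passed. Chaf1a, the large subunit of the chromatin assembly factor CAF-1, was closest, with 171, 177, 476 and 227 normalized reads. Its log2 fold change was 1.02 (SE 0.44) in the authors' deposited table, where its adjusted p was 0.105, and the larger cTKO library stood apart. Chaf1b, the middle subunit of the same complex, had 556, 549.6, 427 and 563 (-0.16, SE 0.34, from the authors' deposited table). Slbp, which binds the stem loop of histone mRNA, had 6807, 4021, 3064 and 4182 (-0.58, SE 0.35, adjusted p 0.282, from the authors' deposited table), and its groups overlapped.

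Read ratios within a library were taken for 9 pairs of members that share a complex, a reaction or a family, chosen after values were seen. The cTKO ratios lay above both WT ratios in 8 pairs and below them in 1, Cdt1 over Gmnn. In the 8 pairs the gene placed first was the one with the higher deposited fold change. The direction of a ratio follows from that order, so these 2 counts are not a result. Among single tested genes, 31.6% had both cTKO libraries above both WT libraries and 28.0% below. No such share was computed over other pairs of genes. The size of the difference in mean log2 ratio between cTKO and WT ran from 0.10 for Dbf4 over Cdc7 and 0.35 for Gins1 over Gins2 to 1.61 for E2f2 over E2f1 and 1.93 for Pole over Pold1. The log2 ratio of Pole to Pold1 reads was -3.91 and -3.78 in WT and -1.47 and -2.36 in cTKO. For Chaf1a over Chaf1b it was -1.70 and -1.64 in WT and 0.16 and -1.31 in cTKO. With 2 libraries a group an exact two-sided permutation test of such a ratio cannot give less than 0.333, so no p is attached. The ratios are within a library and do not depend on the size factors.

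Levels per kilobase of exon set the members in order within a library. Exon length here is the union over all annotated transcripts of a gene and can exceed its mRNA, so this order is approximate. Pcna (1180.0 and 954 in WT, 853 and 908 in cTKO), Mcm6 (1158 and 971, 1014 and 1126) and Slbp (1120.0 and 662, 504 and 688) had the highest normalized reads per kilobase in the larger WT library. Mcm4 followed with 906 and 746 in WT and 997 and 936 in cTKO, and the order of these 4 genes was not the same in every library. At the other end Clspn had 4.35 and 7.39 in WT and 21.9 and 18.8 in cTKO, and Ccne2 8.25 and 4.63 against 12.1 and 8.89. The 4 members that rose were at the low end in WT, with E2f2 highest among them in the larger WT library at 25.1.

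The cTKO libraries differed from each other in many genes, members or not. Of the 42, 10 had over 1.5 times the normalized reads in the larger cTKO library as in the smaller. Over the tested genes with recovered reads it was 3172 of 12711, a similar share. Across the 42 genes Spearman's rho between the log2 ratio of the cTKO libraries and the log2 fold change was 0.73, and across 12266 tested genes with reads and an exon length it was 0.48. Both measures hold the larger cTKO library, so they share part of their values, and genes are not independent replicates. Exon length and the same ratio had a rho of 0.48 over the members and 0.41 over all genes, where the ratio of the WT libraries gave -0.11 and 0.01. Pole (11.2 kilobases of exon), Pola1 (8.81), Chaf1a (8.85) and Exo1 (8.42) are members with a large exon union and a high ratio. Rrm1 (11 kilobases) and Dbf4 (8.73) have exon unions of about that size, with log2 ratios of 0.23 and 0.20. A union over all annotated transcripts can exceed the mRNA, so these genes need not have equally long transcripts. The part of transcript length or RNA quality in these results was not tested.

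**Figure D3:**
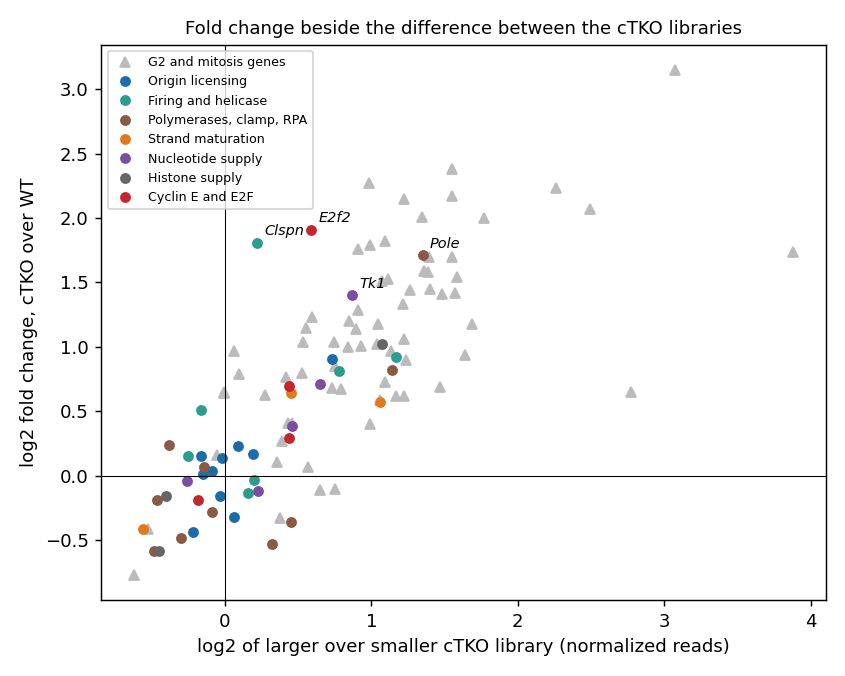
Log2 fold change of cTKO over WT against the log2 ratio of normalized reads in the larger over the smaller cTKO library, for the members (coloured by role) and for genes of G2 and mitosis (grey triangles). Clspn has a high fold change at a log2 ratio of 0.22, E2f2 at 0.59 and Pole at 1.35. The median log2 ratio is 0.13 for the members and 1.04 for the genes of G2 and mitosis.

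Fits without 1 library changed the number of members called. At the deposited dispersions 1 member (E2f2) was higher and 0 lower without the larger cTKO library, where 3.99% and 1.09% of all genes were called. Without the smaller cTKO library 5 members were higher and 0 lower, the 4 named above and Chaf1a (log2 fold change 1.45, adjusted p 0.0452), and 10.0% and 4.77% of all genes were called. Without the larger WT library 2 members were higher, E2f2 and Pole, beside 4.20% of all genes. Without the smaller WT library 2 were higher, E2f2 and Clspn, beside 6.10%. In both fits 0 members were lower, beside 1.16% and 2.19%. limma with all 4 libraries called 2 members higher, E2f2 (adjusted p 0.0112) and Clspn (0.029), and 0 lower, beside 7.69% and 1.94% of all genes, while Pole and Tk1 had adjusted p of 0.0648 and 0.0696. With the term for the larger and the smaller library, limma called all 4, Pole at 0.000876 and Tk1 at 0.00761, beside 13.2% and 4.11% of all genes. These libraries are also those of the female and the male animal. In that fit the variance of the members came from the trend over genes, not from the spread between the animals.

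The members' fold changes also went with their level. Among the 16 members with a mean of 1000 to 5000 normalized counts the median log2 fold change was -0.22 and 0 were called, beside a median of -0.19 for all tested genes of that level, of which 5.78% were higher and 4.82% lower. Among the 15 with a mean of 100 to 500 the median was 0.64 and 3 were higher, beside 0.10 for all genes and 11.6% called higher. Among the 7 with a mean of 10 to 100 it was 0.57, with 1 higher, beside 0.72 for all genes and 19.6% called higher. Only in the band from 100 to 500 did the members' median stand over the median of all genes by more than 0.1.

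Other genes of replication that are not members were called at shares slightly below those of all genes, in both directions. Of 66 such genes 5 were higher (7.58%) and 2 lower (3.03%) in the authors' deposited table, with a median log2 fold change of 0.12. Over all genes tested the shares were 9.77% and 3.61%. The higher genes included Top2a, a topoisomerase that untangles sister chromatids (2.02, SE 0.46), Rrm2b, the p53-induced ribonucleotide reductase subunit (1.16), and Ticrr, a firing factor also known as treslin (2.11). The lower genes were Rpa1, the large subunit of the single-strand binding protein, with 8346, 5640.0, 3132 and 3826 normalized reads (-1.01, SE 0.32, adjusted p 0.0176), and Pold2, the second subunit of polymerase delta, with 1835, 1692, 750 and 1051 (-0.97, SE 0.32, adjusted p 0.0241), both in the authors' deposited table. At the deposited dispersions 0 of the 66 were higher and 0 lower without the larger cTKO library. Top2a had 462, 288, 2286 and 750.3 normalized reads, high in the larger cTKO library.

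Genes that control the G1/S step gave 6 higher (15.8%) and 1 lower (2.63%) of 38 tested, with a median of 0.02. Over all genes tested 9.77% were higher and 3.61% lower. The higher genes included a cyclin D kinase and CDK inhibitors. Cdk6, the kinase, had 218, 201, 1364 and 639 normalized reads (log2 fold change 2.26, SE 0.40, adjusted p 1.05e-06, from the authors' deposited table). Cdkn1a, which codes for the CDK inhibitor p21, had 13.2, 3.46, 82.8 and 85.7 (3.29, SE 0.76, adjusted p 0.000375, from the authors' deposited table). Cdkn2c, which codes for p18, had 111, 107, 350 and 333 (1.64, SE 0.39, from the authors' deposited table). Cdkn2b, which codes for p15, had 0, 0, 35 and 23 reads.

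The E2F factors E2f3, an activator, and E2f7, a repressor, were the other higher genes, at 1.76 (SE 0.58) and 2.41 (SE 0.73) (log2) in the authors' deposited table. Lin37, a subunit of the DREAM complex that represses cell cycle genes in resting cells, was lower (-0.97, SE 0.36, adjusted p 0.0497, from the authors' deposited table). In Lin37 both cTKO libraries were below both WT libraries. Its call was lost with re-centring, with no filter on the mean, by limma, and at the deposited dispersions without any 1 library other than the smaller cTKO (adjusted p 0.645 without the larger cTKO). Without the larger cTKO library at the deposited dispersions, Cdk6, Cdkn1a, Cdkn2b and Cdkn2c were the 4 genes of this list called higher. The calls of E2f3 (adjusted p 0.437) and E2f7 (0.702) were lost there, and 1 gene, Max, a partner of MYC, was lower (-1.51, adjusted p 0.0219), against an adjusted p of 0.0585 in the authors' deposited table.

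Genes of G2 and mitosis had the highest share of calls among the cell cycle lists, 25 of 69 higher (36.2%) and 0 lower in the authors' deposited table. Over all genes tested the shares were 9.77% and 3.61%. The median log2 fold change of the list was 1.04. At an unadjusted p under 0.05 the deposited DESeq2 test gave 42 higher and 1 lower, beside 16.6% and 9.69% of all genes tested. limma gave 6 higher and 0 lower at its adjusted p, beside 7.69% and 1.94% of all genes, so in that fit the share called higher was close to the background. With the term for the larger and the smaller library limma called more of the list higher than the deposited test did, beside 13.2% of all genes. That count is given in the last section. The 6 with the smallest p were Ccna2, Ncapg, Espl1, Nusap1, Cenpf and Kif11. Ccna2, the cyclin of S and G2 phase, had 202, 111, 1383 and 315 reads (2.38, SE 0.47, adjusted p 1.37e-05, from the authors' deposited table), and Espl1, which codes for separase, 32, 23, 504 and 40. In 63 of the 69 the larger cTKO library was the highest of the 4, beside 4719 of 12711 tested genes with recovered reads. At the deposited dispersions 0 were higher without the larger cTKO library, and their median was then 0.52. The difference between this list and the members was not tested.

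**Figure D4:**
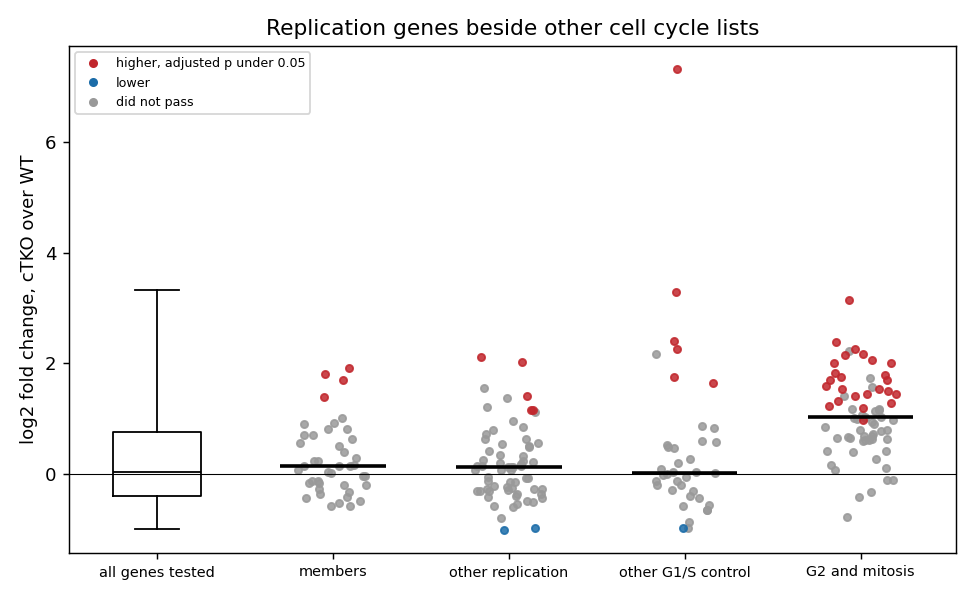
Log2 fold change of every tested gene in the member list and in 3 lists of related genes, with the median as a bar, beside a box of all tested genes (median, quartiles, and whiskers at the 5th and 95th percentile). Red and blue points passed an adjusted p of 0.05 as higher and lower, 4 and 0 among the members and 25 and 0 among the genes of G2 and mitosis.

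Promoters of the mitosis genes and of the members differed in the share that held each motif, a difference with no test. The letters TTTGAA or TTTAAA, on either strand, were in the windows of 39 of 54 genes of G2 and mitosis (72.2%). They were in 29.4% of the member genes, 22.7% of the tested genes and 30.6% of all genes. The E2F-type letters were in 9.26% of the genes of G2 and mitosis and 38.2% of the member genes.

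Markers of other cells and states also differed between the genotypes, and their part in the results above was not tested. For the counts below, 9.77% of all genes tested were higher and 3.61% lower. Of 25 effector CD8 T cell genes 22 were higher and 0 lower, with 16274 and 14055 summed normalized reads in WT and 52587 and 50720.0 in cTKO over the 19 with recovered reads. Of 15 natural killer markers 9 were higher and 1, Fcer1g, lower (2183 and 2379 in WT, 11941 and 10736 in cTKO, over 14 genes), and Ncr1, which defines that lineage, had 2, 4, 22 and 1 reads. Of 12 B cell markers 4 (Cd79b, H2-Ab1, H2-Aa and Cd74) were lower and 0 higher, with 4615 and 4338 against 3469 and 2466 over the 17 found. Of 11 myeloid markers 2, Itgax and Itgam, were higher (273 and 218, against 2739 and 976, over the 17 found). Of 9 CD4 T cell markers 2, Zbtb7b and Gata3, were higher. Lower genes were Car2 among 10 erythroid markers, Ccr9 and Cd1d1 among 4 thymocyte markers, and Lat among 11 CD8 T cell genes. Rag1 was at 0 in 3 libraries with 2 reads in the remaining one (larger cTKO), and Rag2 had 1 read in each cTKO library. Of 16 genes induced by handling of cells 9 were lower and 1, Ier3, higher (37187 and 38911, against 18338 and 22767, over the 18 found).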

How the data were processed

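Genes were analysed in 1 deposited table of CD8 T cells, from 2 WT and 2 cTKO animals. STAR and DESeq2 were used, with builds mm10 and GRCm38.p6, per the submitters' processing notes. No version, annotation, counting tool or strand setting was found in the labels or headers, so reads shared with overlapping or near-identical genes are uncertain. Per the file headers, the authors deposited for each gene a mean of normalized counts over the libraries (a signal), a fold change and its standard error (both log2), a test score, and p-values before and after adjustment. Genes were called at the authors' adjusted p under 0.05. P-values rest on 2 animals per group. DESeq2 and limma both draw the variance of a gene partly from other genes, so a p-value does not measure the spread between these animals alone.

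Whole reads per library were recovered from the means (Python 3.11.15, numpy 2.4.6), as each mean is a sum of whole reads at 4 fixed steps. For genes with a mean above 15 and reads in both genotypes, 1 combination had to return the deposited fold change within 1e-09 in a 2-group negative binomial fit. The limit could be looser for other genes. Up to a mean of 15 the largest error, among genes with reads in both genotypes, was 1.95e-09. Reads were solved for 17892 of 18153 genes with a read (98.6%) and for 12711 of 12972 tested genes. All 42 members were solved within 1e-09. In reads simulated from solved genes, with the recovered size factors taken as known, 2728 of 2736 genes were solved, and each of these was right. The simulation therefore does not cover the genes left unsolved or the finding of the steps. Refits of the members differed from the deposited log2 fold change by at most 1.75e-06. Recovered reads limit precision at the low end, where counting error alone is large.

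Alternatives were re-centring on the median of genes whose mean reached 100 (a shift of -0.10), other filters and thresholds, limma 3.58.1 (R 4.3.3) on log2 of normalized reads plus 0.5 or 2, and fits without each library. limma called 148 of 200 simulated 4-fold changes among 12711 genes of this comparison, and 5 unchanged genes. The simulation gave the libraries of a group the same mean, without the difference between the cTKO libraries seen here. These counts therefore do not give the error rate of limma in the real comparison. Fits without a library at the deposited dispersions, and all alternatives for the 3 related lists, were chosen after seeing the data. Where 1 library was left in a group, it was assumed to vary like the others.

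Every member is named. In related lists the 6 genes with the smallest p in each direction are named where called, and longer sets of called markers are given as counts. The members and lists were chosen with earlier results of these data known. Exon lengths are unions of GENCODE M21 exons, and promoters are those of RefSeq on GRCm38.p6. Table columns of other samples left unused numbered 0. Some genes of the lists are counted but not reported here by name.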

Additional observations from a re-analysis of the deposited data

How the results depend on the processing

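Each call of a member kept its direction under every alternative run. The 4 calls of higher members were unchanged in number with re-centring, with no filter, with a mean of at least 50 and at an adjusted p under 0.1, and limma gave 2 with a pseudocount of 0.5, 2 with 2, and 4 with a term for the larger and the smaller library. Leaving out 1 library gave 0 to 5 higher members and a median of 0.03 to 0.22, over limma and the fit at deposited dispersions. limma gave 2 higher and 0 lower other replication genes at either pseudocount, 8 and 2 with that term, and leaving out 1 library gave 0 to 7 higher and 0 to 2 lower. Their median was 0.22 with re-centring and 0.02 to 0.11 without a library. For the G1/S control genes the lower count was 0 with re-centring, with no filter and by limma at either pseudocount, and 3 at an adjusted p under 0.1. Without a library it was 0 to 1, the higher count 1 to 8 and the median -0.05 to 0.20. For G2 and mitosis genes limma gave 6 higher at either pseudocount and 31 with that term, and 1 was lower at an adjusted p under 0.1. Without a library 0 to 29 were higher, 0 to 1 lower, and the median was 0.52 to 1.48. Over all genes 468 were lower as deposited, 246 by limma, 275 with a pseudocount of 2, 522 with that term (and 1677 higher, against 977 without it) and 776 at an adjusted p under 0.1, and leaving out 1 library gave 225 to 1273 higher and 4 to 606 lower. The cause of these changes was not tested. No paired analysis was possible because the WT and cTKO animals share no replicate number; the term above pairs them by library size and sex only. With 4 libraries, differences of members within their 95% intervals were not resolved.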
